A study of Homo sapiens with 10 samples.

Results

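The genes described here encode PHF20L1, MORF4L2 and 8 proteins that share complexes or domains with them, measured in MEG-01 cells, a human megakaryoblastic leukemia line, after transfection with the precursor of miR-1225-3p. The 10 members were PHF20, PHF20L1, KAT8, KANSL1, KANSL2, KANSL3, MCRS1, HCFC1, MORF4L1 and MORF4L2, of 19102 named genes on the array. The set was chosen by measured values, since PHF20L1 and MORF4L2 were selected on their difference in this very comparison and the rest were added as their paralogs and complex partners. The values of PHF20L1 and MORF4L2 are therefore a description without a test. RefSeq accessions in the scanner output matched 13 probes to 9 members, and KANSL3 matched none. A probe counted as kept where at least 3 of 5 arrays in 1 group or the other read it well above background, by the scanner's own flag, and 12 member probes of 8 genes were among the 20648 kept probes. HCFC1 had no kept probe.

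Cells received 200 nM of miR-1225-3p precursor or 200 nM of scrambled precursor as negative control and were collected after 24 hours. Each group had 5 arrays, hybridized with a single dye, and both groups came from the same line, so every value belongs to a transformed line and to a supplied excess of microRNA. The labels number the 5 samples of a group as biological replicates and do not say whether they were separate cultures, so p-values measure the spread between these samples. In bulk RNA, fewer cells of a kind and less RNA per cell cannot be told apart. The share of spots well above background was 41.95% to 53.85% over the miR-1225-3p arrays and 43.09% to 61.18% over the scrambled ones, and 0 spots were saturated. Among the megakaryocyte markers 8 had a kept probe, 6 of them well above background on all arrays, while PF4 had none. Of the markers of other lineages, CD3E, CD14, EPCAM and COL1A1 also had a kept probe, and their part in the results was not tested.

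Replicate 5 of the miR-1225-3p group stood apart from the others. The first principal component of the kept probes held 69.8% of the variance, and miR-1225-3p replicates 1 to 4 had scores of -57.15, -99.83, -101.3 and -146.9 on it. The scrambled arrays lay at 57.13 to 82.89, and miR-1225-3p replicate 5 lay among them at 63.83. The differences of the kept member probes and the counts of probes or genes that passed are given with all arrays and without that replicate. The arrays also lay on 2 slides that were scanned separately, with miR-1225-3p replicates 1 and 2 and scrambled replicates 1, 3 and 5 on slide 1 and the others on slide 2, and values within each slide are given for the member probes that passed the test and for PHF20L1 and MORF4L2.

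The male-specific lethal (MSL) and non-specific lethal (NSL) complexes are the assemblies through which KAT8 acetylates histone H4, the MSL complex at lysine 16 and the NSL complex at the promoters of widely expressed genes. PHF20 is a reader subunit of the NSL complex, and PHF20L1 is its paralog, with Tudor domains that bind methylated lysine. MORF4L1 and MORF4L2 share the MRG domain and belong to the NuA4/TIP60 acetyltransferase complex, whose catalytic subunit is KAT5, and to SIN3 deacetylase complexes, so that the same proteins are found in assemblies with opposite effects on acetylation. A microRNA pairs with messages mainly through its seed, bases 2 to 8 from the 5′ end. The sequence is shown because it is the agent that separated the groups, with the seed in capitals, as RefSeq lists it with the human assembly GRCh38.p14.

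hsa-miR-1225-3p: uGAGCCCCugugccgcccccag

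Among 2370 mature names in that table no other carried the seed GAGCCCC. No target site was searched for in the member transcripts.

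**Figure D1:**
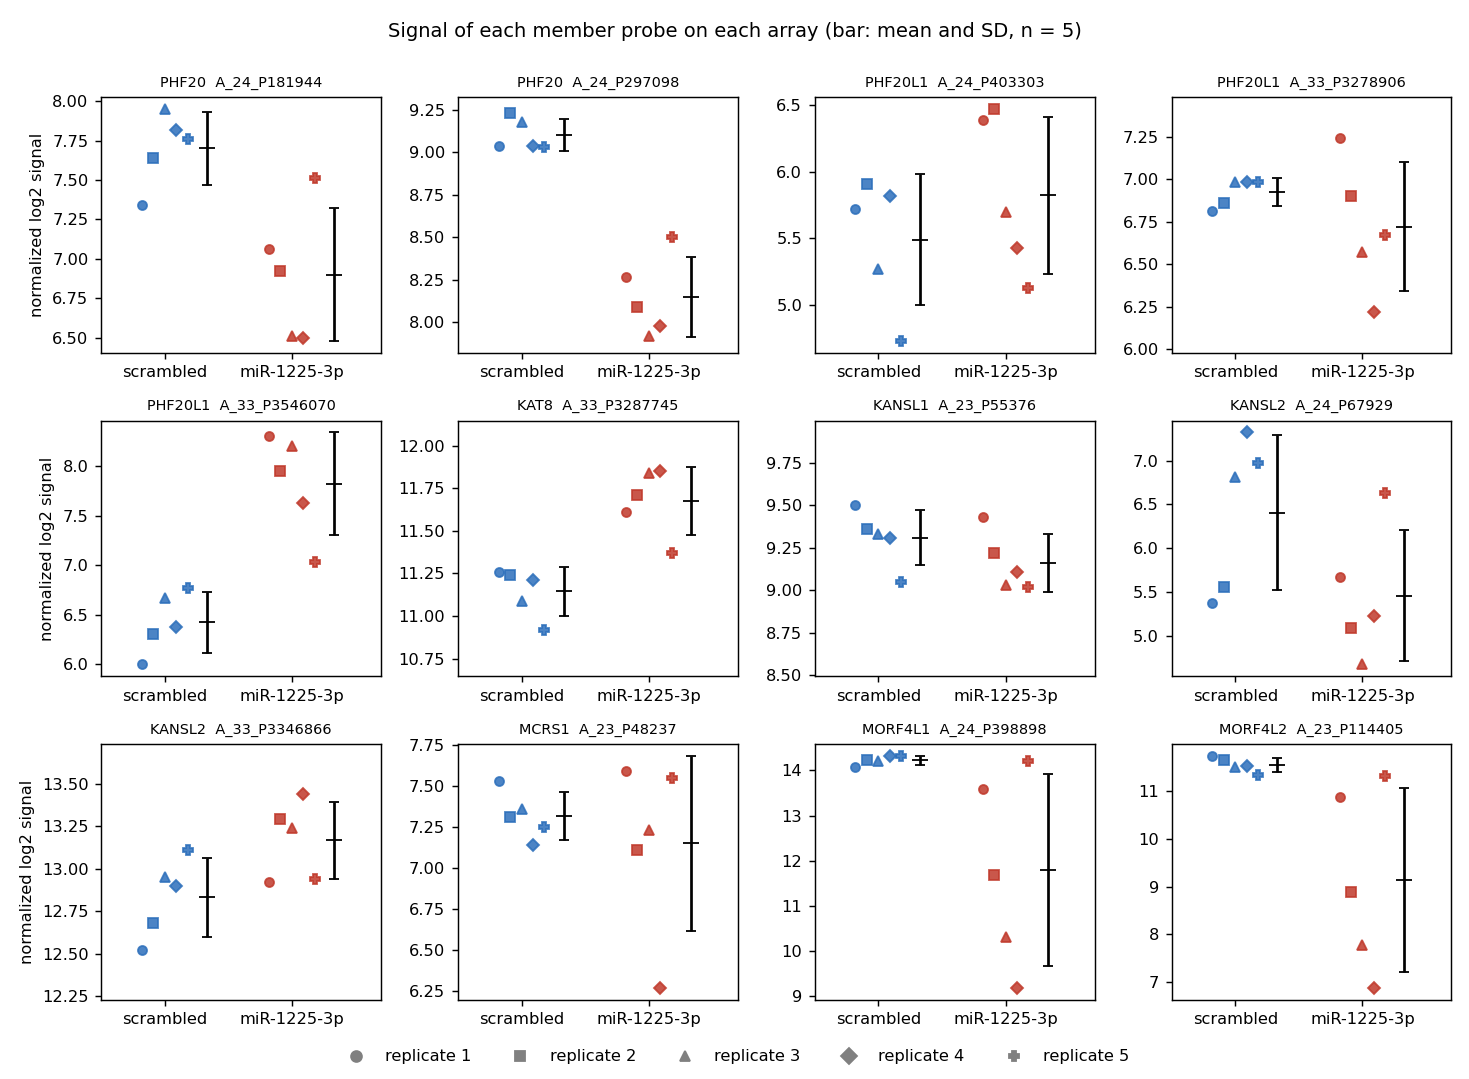
Normalized log2 signal of the 12 kept member probes on each array, with scrambled arrays in blue, miR-1225-3p arrays in red, a marker shape for each replicate number, and bars for the mean and SD of 5 arrays. The MORF4L1 and MORF4L2 panels span several log2 units within the miR-1225-3p group, with replicate 5 beside the scrambled arrays, and the PHF20L1 panels differ between probes.

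PHF20L1 differed by probe. Probe A_33_P3546070 read higher in the miR-1225-3p group by 1.40 on the log2 scale, and the other 2 probes had differences about as large as their standard errors. PHF20L1 binds methylated lysine on histones and on DNMT1, the maintenance DNA methyltransferase, and is known to protect DNMT1 from degradation. Probe A_33_P3546070, designed for transcript NM_016018, had normalized log2 signals of 8.31, 7.95, 8.21, 7.63 and 7.03 on miR-1225-3p replicates 1 to 5. On scrambled replicates 1 to 5 the same probe gave 6.0, 6.31, 6.67, 6.38 and 6.77. The groups did not overlap, and replicate 5 was the lowest of the miR-1225-3p arrays. The difference of the means was 1.40 (SE 0.257), a fold of 2.64, and it was 1.60 without replicate 5, 1.65 within slide 1 and 1.28 within slide 2.

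The remaining PHF20L1 probes were both designed for transcript NM_198513. Probe A_33_P3278906 gave 7.24, 6.90, 6.57, 6.22 and 6.67 on the miR-1225-3p arrays. The scrambled arrays gave 6.81, 6.86, 6.98, 6.98 and 6.98, within the range of the other group. The difference was -0.20 (SE 0.182), and it was -0.19 without replicate 5, 0.14 within slide 1 and -0.43 within slide 2, so its sign depended on the slide. Probe A_24_P403303, which was well above background on 4 of 5 arrays in each group, ranged from 5.13 to 6.47 with miR-1225-3p and from 4.73 to 5.91 with the scrambled precursor. Its difference was 0.33 (SE 0.317), with 0.50 without replicate 5, 1.19 within slide 1 and -0.45 within slide 2. The log2 ratio of A_33_P3546070 to A_33_P3278906 on the same array was 0.35 to 1.64 in the miR-1225-3p group and -0.81 to -0.22 in the scrambled group. Its ratio to A_24_P403303 was 1.49 to 2.51 and 0.29 to 2.03, where the groups overlapped. The probes were not averaged into a gene value.

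MORF4L2 had the lower signal with miR-1225-3p, by 2.41 on the log2 scale, and the size varied widely over the arrays of that group. The protein, also called MRGX, carries the MRG domain without the chromodomain of its paralog. Probe A_23_P114405 gave 10.88, 8.88, 7.78, 6.88 and 11.33 on miR-1225-3p replicates 1 to 5. The scrambled arrays gave 11.74, 11.65, 11.51, 11.53 and 11.35. Every scrambled value lay above every miR-1225-3p value, but replicate 5 lay only just below the lowest scrambled array, while replicate 4 lay farthest down. The difference was -2.41 (SE 0.768), a fold of 5.32, and it was -2.96 without replicate 5, -1.66 within slide 1 and -2.93 within slide 2. The probe was printed 10 times on each array, and the SD over these spots was 0.0373 to 0.133. The SD over the 5 miR-1225-3p arrays was 1.93.

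MORF4L1, also called MRG15, is the MRG protein with a chromodomain that binds methylated histone H3, and its values were not among those that the selection used, although its signal followed that of the selected MORF4L2 from array to array. It fell by 2.43 on the log2 scale with an adjusted p just under the threshold. Probe A_24_P398898 gave 13.58, 11.69, 10.30, 9.18 and 14.20 on the miR-1225-3p arrays and 14.08, 14.22, 14.20, 14.31 and 14.31 on the scrambled arrays. Replicates 1 to 4 lay below all scrambled arrays and replicate 5 lay among them. The mean was 11.79 ± 2.12 (SD, n = 5) against 14.22 ± 0.0941 (SD, n = 5), a difference of -2.43 (SE 0.843, fold 5.41, 95% interval -4.30 to -0.56), with adjusted p = 0.0468 by limma. Without replicate 5 the difference was -3.04 with adjusted p = 0.00666 by limma, and within slides it was -1.56 and -3.04. The call was lost in 8 of 13 alternative settings and in 8 of 10 fits that left out a single array, remaining under the threshold without miR-1225-3p replicate 1 (adjusted p = 0.0417 by limma) and without replicate 5, and the difference in these fits ran from -3.04 to -1.78 on the log2 scale.

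**Figure D2:**
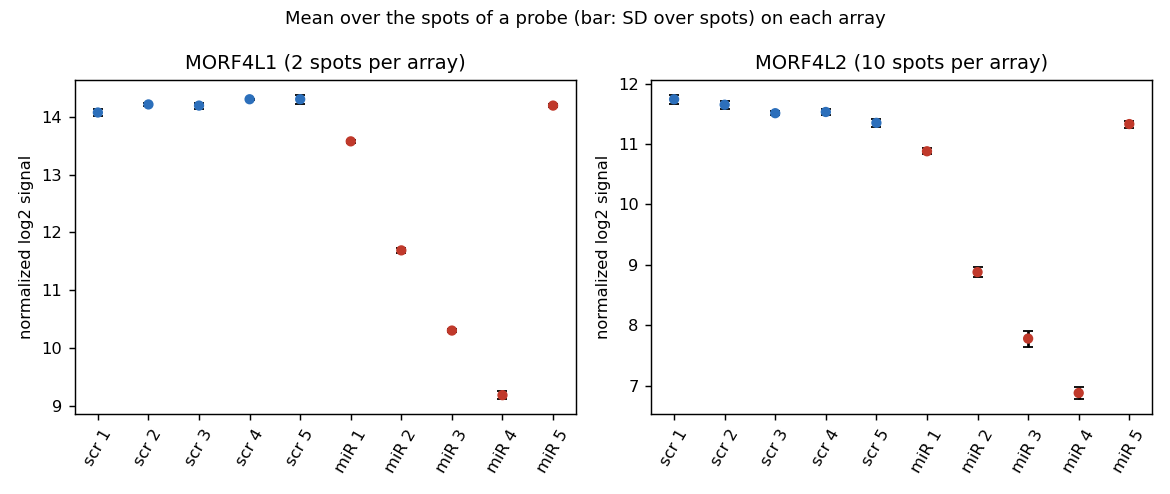
Normalized log2 signal of the MORF4L1 probe (2 spots per array) and the MORF4L2 probe (10 spots per array) on each array, as the mean over spots with bars for the SD over spots; scr marks scrambled and miR marks miR-1225-3p arrays. On both probes miR-1225-3p replicate 4 is lowest (9.18 and 6.88) and replicate 5 lies at the scrambled level, with SDs over the MORF4L2 spots of 0.0373 to 0.133.

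Both MRG genes moved by nearly the same amount on each array. The log2 ratio of the MORF4L2 probe to the MORF4L1 probe was -2.70, -2.81, -2.52, -2.30 and -2.87 on the miR-1225-3p arrays. It was -2.34, -2.57, -2.69, -2.77 and -2.96 on the scrambled arrays, over the same range. The means were -2.64 ± 0.231 (SD, n = 5) and -2.66 ± 0.232 (SD, n = 5), so the ratio differed by 0.02 while each signal had differed by more than 2 log2 units. Signals of different probes are not comparable as levels, and only the change of the ratio between arrays carries meaning. The genes are close paralogs, the probe sequences were not used here, and how much of each signal came from the related message was not tested.

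The array order recurred in several members. With 5 miR-1225-3p arrays ordered by their score on the first principal component, MORF4L1, MORF4L2 and PHF20 probe A_24_P181944 had the same order and KAT8 the opposite order. Of all probes tested, 16.1% had the same or the opposite order, and the member probes are themselves among the probes behind the component. PHF20L1 probe A_33_P3546070 did not have this order, its highest signal being on replicate 1 and its lowest on replicate 5. What set the order of the arrays was not tested.

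**Figure D3:**
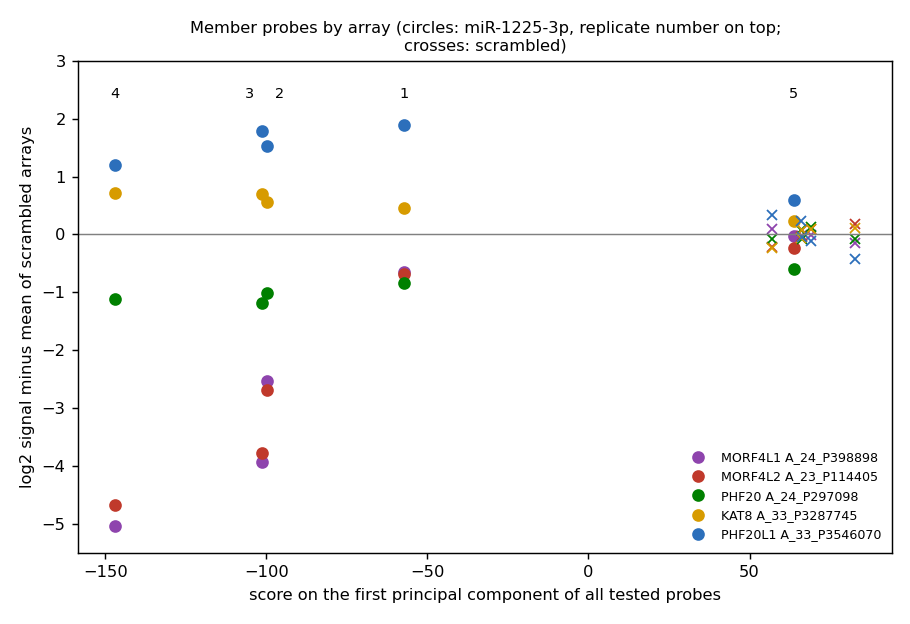
Log2 signal of 5 member probes minus their mean over the scrambled arrays (vertical) against each array's score on the first principal component of all kept probes (horizontal), with circles for miR-1225-3p arrays, their replicate numbers on top, and crosses for scrambled arrays. MORF4L1 and MORF4L2 overlie each other and go down toward replicate 4 at -146.9, PHF20 and KAT8 change less, and replicate 5 lies beside the scrambled arrays at 63.83.

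The NSL subunits moved in different directions. Of 8 probes for the 6 tested members other than PHF20L1 and MORF4L2, 4 passed the test (limma, adjusted p under 0.05), with KAT8 higher and 3 lower (both PHF20 probes and MORF4L1), against 35.0% of all 20648 probes (16.3% higher and 18.7% lower). Their median difference was -0.48 on the log2 scale, and that of all probes was -0.09. The groups did not overlap for 2 of the 8 probes, against 12.6% of all probes. Without replicate 5, 5 of the 8 passed, against 55.8% of all probes, and the groups did not overlap for 4, against 46.2% of all probes. With each array scaled to its 75th percentile, which moved the median of all probes to 0.11, the 4 calls were 2 higher and 2 lower.

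PHF20 fell by close to 1 log2 unit on both of its probes, which are designed for the same transcript. PHF20 reads methylated lysine, including on p53, and links the NSL complex to chromatin. Probe A_24_P297098 gave 8.27, 8.09, 7.92, 7.98 and 8.50 with miR-1225-3p and 9.04, 9.23, 9.18, 9.04 and 9.03 with the scrambled precursor. All 5 miR-1225-3p arrays lay below all scrambled arrays, replicate 5 included. The difference was -0.95 (SE 0.142, adjusted p = 0.0141 by limma), and it was -1.04 without replicate 5 (adjusted p = 0.000141 by limma), -0.90 within slide 1 and -1.0 within slide 2.

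Probe A_24_P181944 of PHF20 gave 7.06, 6.92, 6.51, 6.50 and 7.51 against 7.34, 7.64, 7.95, 7.82 and 7.76. Here replicate 5 lay above the lowest scrambled array, so the groups overlapped. The difference was -0.80 (SE 0.213, 95% interval -1.27 to -0.33, adjusted p = 0.0225 by limma), with -0.95 without replicate 5, -0.69 within slide 1 and -0.89 within slide 2. Its call was lost on leaving out replicate 2 or 3 of the miR-1225-3p group, or replicate 3 or 4 of the scrambled group (differences of -0.81, -0.70, -0.74 and -0.77, adjusted p = 0.0551, 0.0571, 0.0525 and 0.0524 by limma). The log2 ratio of the PHF20 probes differed between groups by -0.15, with p = 0.27 by a two-sided exact permutation test.

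KAT8 rose by 0.53 on the log2 scale. KAT8, also called MOF or MYST1, is the catalytic acetyltransferase of both the NSL and the MSL complex. Probe A_33_P3287745 gave 11.61, 11.71, 11.84, 11.85 and 11.37 with miR-1225-3p and 11.26, 11.24, 11.09, 11.21 and 10.92 with the scrambled precursor. All miR-1225-3p arrays lay above all scrambled arrays. The difference was 0.53 (SE 0.138, 95% interval 0.23 to 0.84, adjusted p = 0.0213 by limma), with 0.61 without replicate 5, 0.57 within slide 1 and 0.46 within slide 2. It was 1.02 with 75th percentile scaling, so the size of the rise depended on how the arrays were scaled. The call was lost on leaving out replicate 2 or 3 of the miR-1225-3p group, or replicate 3 of the scrambled group (differences of 0.53, 0.49 and 0.52, adjusted p = 0.0562, 0.0564 and 0.0501 by limma).

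KANSL1 and MCRS1 did not pass the test. KANSL1, the scaffold of the NSL complex and the gene disrupted in Koolen-de Vries syndrome, gave 9.02 to 9.43 with miR-1225-3p and 9.05 to 9.5 with the scrambled precursor. Its difference was -0.15 (SE 0.136, 95% interval -0.45 to 0.15, adjusted p = 0.387 by limma), and it was -0.12 without replicate 5 and 0.17 with 75th percentile scaling. MCRS1, a subunit with a forkhead-associated domain, gave 6.27 to 7.59 against 7.14 to 7.53. Its difference was -0.17 (SE 0.238, 95% interval -0.70 to 0.36, adjusted p = 0.588 by limma), it was -0.27 without replicate 5 and 0.016 with quantile normalization, and it was 0.053 without miR-1225-3p replicate 4, the array at 6.27. The direction of neither gene was settled.

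KANSL2, a further NSL subunit, had probes of opposite sign. The brighter probe, A_33_P3346866, gave 12.92, 13.29, 13.24, 13.44 and 12.94 against 12.52, 12.68, 12.95, 12.90 and 13.11. The groups overlapped, and the difference was 0.34 (SE 0.162, 95% interval -0.02 to 0.70, adjusted p = 0.122 by limma), or 0.39 without replicate 5. With 75th percentile scaling it was 0.91 with adjusted p = 0.0234 by limma. The dimmer probe, A_24_P67929, well above background on 4 of 5 arrays in each group, gave 5.67, 5.09, 4.67, 5.22 and 6.63 against 5.37, 5.55, 6.81, 7.32 and 6.97. Its difference was -0.95 (SE 0.467, adjusted p = 0.128 by limma), and without replicate 5 it was -1.24 with adjusted p = 0.0339 by limma. The log2 ratio of the brighter to the dimmer probe was higher with miR-1225-3p by 1.28, with p = 0.0317 by a two-sided exact permutation test and 0.0634 after Benjamini-Hochberg adjustment over the 2 probe pairs tested.

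HCFC1, a coregulator that docks chromatin-modifying enzymes onto transcription factors, was measured near background. Its probe was well above background on 2 of 5 arrays in each group, with log2 signals of 2.81 to 4.63 with miR-1225-3p and 4.09 to 4.81 with the scrambled precursor. Fitted without the filter on dim probes, the difference was -0.85 (SE 0.379, adjusted p = 0.184 by limma).

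**Figure D4:**
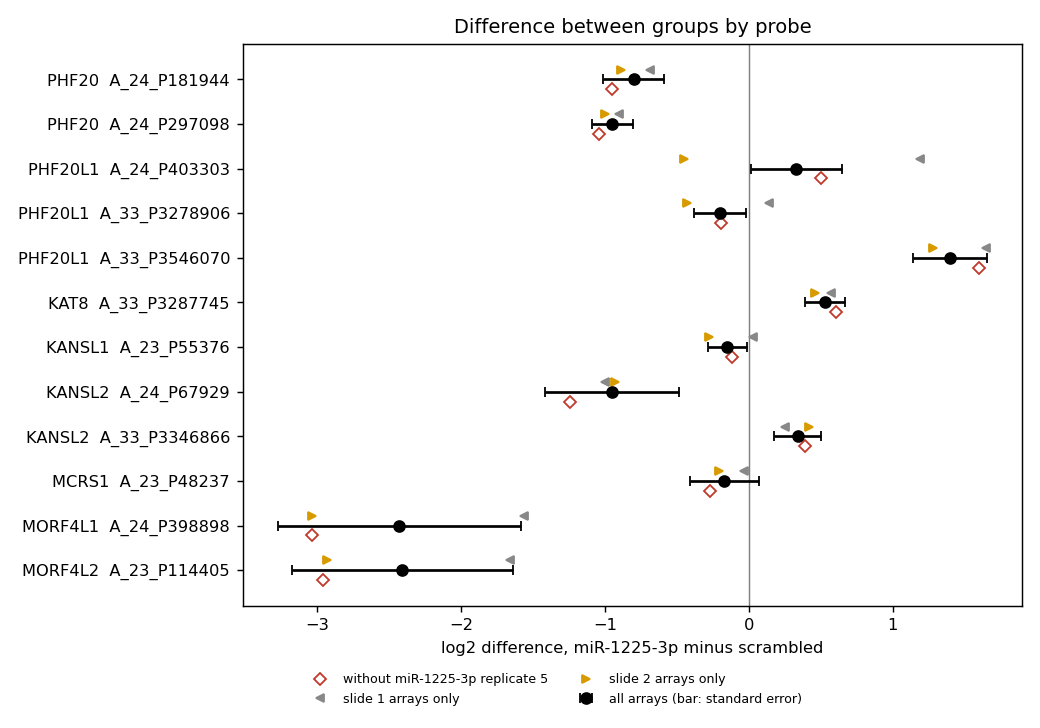
Difference of the group means on the log2 scale (miR-1225-3p minus scrambled) for the 12 kept member probes, with black circles and SE bars for all arrays, open red diamonds without miR-1225-3p replicate 5, and triangles for each slide alone. Both MRG genes lie near -2.4 with the longest bars, PHF20 lies between -0.80 and -0.95, and 2 of the 3 PHF20L1 probes have slides on either side of 0.

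The wider assemblies were described through 45 genes in 6 lists, a gene being represented by its brightest kept probe, and 42 could be tested. By limma 20 passed at an adjusted p under 0.05, of which 5 were higher and 15 lower, against 36.9% of the 11995 named genes tested (18.2% higher and 18.7% lower). Their median difference was -0.41, and that of all named genes was -0.04 on the log2 scale. The split moved with the scaling, being 13 higher and 13 lower with the 75th percentile, 5 higher and 12 lower with quantile normalization, and 0 higher and 3 lower with no normalization (limma, 17 at an unadjusted p under 0.05). The count also moved with single arrays, being 30 without miR-1225-3p replicate 5, against 58.0% of named genes in that fit, and 2 without replicate 2 or replicate 3 of that group, fits in which 11.0% and 12.4% of all probes passed. Of the called genes, MSL2, KDM1A, SIRT2 and PHF12 had 2 of 5 miR-1225-3p arrays above background and thus entered the test only through the scrambled group, where they were high. The filter leaned toward lower values for them, their calls support nothing, and no difference is given for them. The 15 lower genes and the median of -0.41 also include TRRAP, BAP1 and SETD7, which 3 of 5 miR-1225-3p arrays read above background. That median further includes EP400, RUVBL1 and THAP11, uncalled genes that entered the test only through the scrambled group. RUVBL1 and THAP11 are also among the 30 genes called without replicate 5. All arrays read the 5 higher genes well above background. With the test kept to probes that all arrays read well above background, 15 of 31 genes passed, against 39.1% of all such probes. That count was not split by direction. Over all 42 genes, the groups did not overlap for 6, MSL2 included, against 1754 of the 11995 named genes. Called genes that are named below only to complete a count were picked out after their values were seen.

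In the NuA4/TIP60 complex 6 of 17 genes passed, 2 higher and 4 lower, against 36.9% of named genes, with a median of -0.16. KAT5, its acetyltransferase, fell from 8.26 ± 0.208 (SD, n = 5) to 7.03 ± 0.925 (SD, n = 5), a log2 difference of -1.23 (SE 0.386, adjusted p = 0.0353 by limma). TRRAP, the large scaffold, fell by 1.91 on the log2 scale (SE 0.652, adjusted p = 0.045 by limma), its probe having a signal well above background in all scrambled samples but in 3 of the miR-1225-3p samples. EP400, the ATPase that exchanges histones, had a difference of -0.07 (SE 0.361, adjusted p = 0.88 by limma) on a probe near background, and the sign turned to 0.13 with quantile normalization. That probe was above background on 2 of 5 miR-1225-3p and 3 of 5 scrambled arrays, so it too entered the test only through the scrambled group. Also lower were RUVBL2, an AAA+ ATPase, by a difference of -1.90, and the brighter probe of MBTD1, a reader of methylated lysine, by -0.94, while the other MBTD1 probe had 0.07 (adjusted p = 0.807 by limma). Higher were YEATS4, a reader of acetylated lysine, by 1.05 and EPC2, an enhancer of polycomb homolog, by 0.84. ING3 did not pass on its brighter probe (adjusted p = 0.989 by limma), while its other probe had 1.25 (adjusted p = 0.0144 by limma). Without replicate 5 the count was 12 of 17, against 58.0% of named genes. That count and the median of -0.16 include RUVBL1, which did not pass with all arrays. Its probe was above background on 2 of 5 miR-1225-3p and 3 of 5 scrambled arrays. RUVBL1 thus entered the test only through the scrambled group, and its call without replicate 5 supports nothing.

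In the MSL complex 1 of 3 genes, MSL2, passed with and without replicate 5, against 36.9% and 58.0% of named genes. MSL2, its ubiquitin ligase subunit, had a mean log2 signal of 7.30 ± 0.171 (SD, n = 5) on the scrambled arrays, all of which read it well above background, and lay near background on most miR-1225-3p arrays. MSL1, the scaffold, had a difference of 0.13 (SE 0.163, adjusted p = 0.542 by limma) on its brighter probe and -0.31 (adjusted p = 0.127 by limma) on the other. MSL3, a chromodomain subunit, had -0.47 (adjusted p = 0.175 by limma) on its brighter probe and 1.72 (adjusted p = 0.0178 by limma) on its other kept probe, so its direction depended on the probe.

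Among the NSL partners 0 of 2 genes passed by limma, against 36.9% of named genes. WDR5, a WD40 protein shared with histone H3 lysine 4 methyltransferases, had a difference of 0.55 (SE 0.254, adjusted p = 0.109 by limma). OGT, the enzyme that glycosylates and cleaves HCFC1, had 0.39 (SE 0.146, adjusted p = 0.0593 by limma). Without replicate 5 both passed, at 0.73 and 0.42, against 58.0% of named genes.

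Of the SIN3/HDAC and other MRG-domain partners 4 of 9 tested genes passed, 1 higher and 3 lower, against 36.9% of named genes. RBBP7, a histone-binding chaperone, rose from 11.75 ± 0.0478 (SD, n = 5) to 12.29 ± 0.294 (SD, n = 5), a difference of 0.54 (adjusted p = 0.0273 by limma), with groups that did not overlap. SIN3A, the scaffold of the deacetylase complex, fell from 9.02 ± 0.39 (SD, n = 5) to 7.60 ± 0.502 (SD, n = 5), a difference of -1.42 (adjusted p = 0.0144 by limma), also without overlap. The other called genes were MRFAP1, which binds MORF4L1, at -1.90, and PHF12, a dim PHD-finger subunit. Without replicate 5 the count was 5 of 9, against 58.0% of named genes. RBBP4 did not pass in either count, each of which rests on its brightest probe (difference -0.35 with all arrays, adjusted p = 0.177 by limma). Its 4 kept probes disagreed. Of the others, 1 was higher and did not pass, and the rest were lower by more than 3 log2 units and passed by limma. The size and sign of the RBBP4 difference thus depended on the probe. The catalytic subunits HDAC1 and HDAC2 had differences of 0.09 and 0.54 that did not pass with all arrays. Without replicate 5 HDAC2 passed, at 0.73 (adjusted p = 0.00523 by limma), and HDAC1 did not (0.11, adjusted p = 0.38 by limma).

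Of 6 tested partners of HCFC1, 4 passed and were lower, against 18.7% of named genes called lower, and the median was -0.75. All 6 differences were negative, and both that count and the median include THAP11, which did not pass. THAP11, with 1 of 5 miR-1225-3p arrays above background, entered the test only through the scrambled group, so its sign supports nothing. SETD1A, which did not pass, turned to 0.08 with 75th percentile scaling. KMT2A, a histone H3 lysine 4 methyltransferase, fell from 10.60 ± 0.0993 (SD, n = 5) to 10.03 ± 0.225 (SD, n = 5), a difference of -0.57 (adjusted p = 0.0182 by limma), with groups that did not overlap. CXXC1 and ASH2L, subunits of such methyltransferases, had differences of -1.27 and -0.46, and BAP1, a histone deubiquitinase with 3 of 5 miR-1225-3p arrays above background, had -2.12. With 75th percentile scaling KMT2A and ASH2L shrank to -0.15 and -0.13, while CXXC1 and BAP1 had -1.22 and -2.11. Without replicate 5 the count was 5 of 6, THAP11 included, against 58.0% of named genes.

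Of the 5 partners of PHF20L1 and of histone H4 lysine 16 acetylation 5 passed, 2 higher and 3 lower. The count was the same without replicate 5, against 36.9% of named genes with all arrays and 58.0% without replicate 5. It includes the dim KDM1A and SIRT2, in a list chosen with earlier results known. DNMT1 rose from 9.55 ± 0.0693 (SD, n = 5) to 9.90 ± 0.167 (SD, n = 5), a difference of 0.36 (adjusted p = 0.0462 by limma), with groups that did not overlap. SETD7, which methylates DNMT1, had a difference of -0.84, with 3 of 5 miR-1225-3p arrays above background. SIRT1, a deacetylase, was higher by 0.91. KDM1A, a demethylase, and SIRT2, a deacetylase, had mean log2 signals of 7.22 ± 0.212 and 7.12 ± 0.388 (SD, n = 5) on the scrambled arrays, and most miR-1225-3p arrays did not read them well above background.

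**Figure D5:**
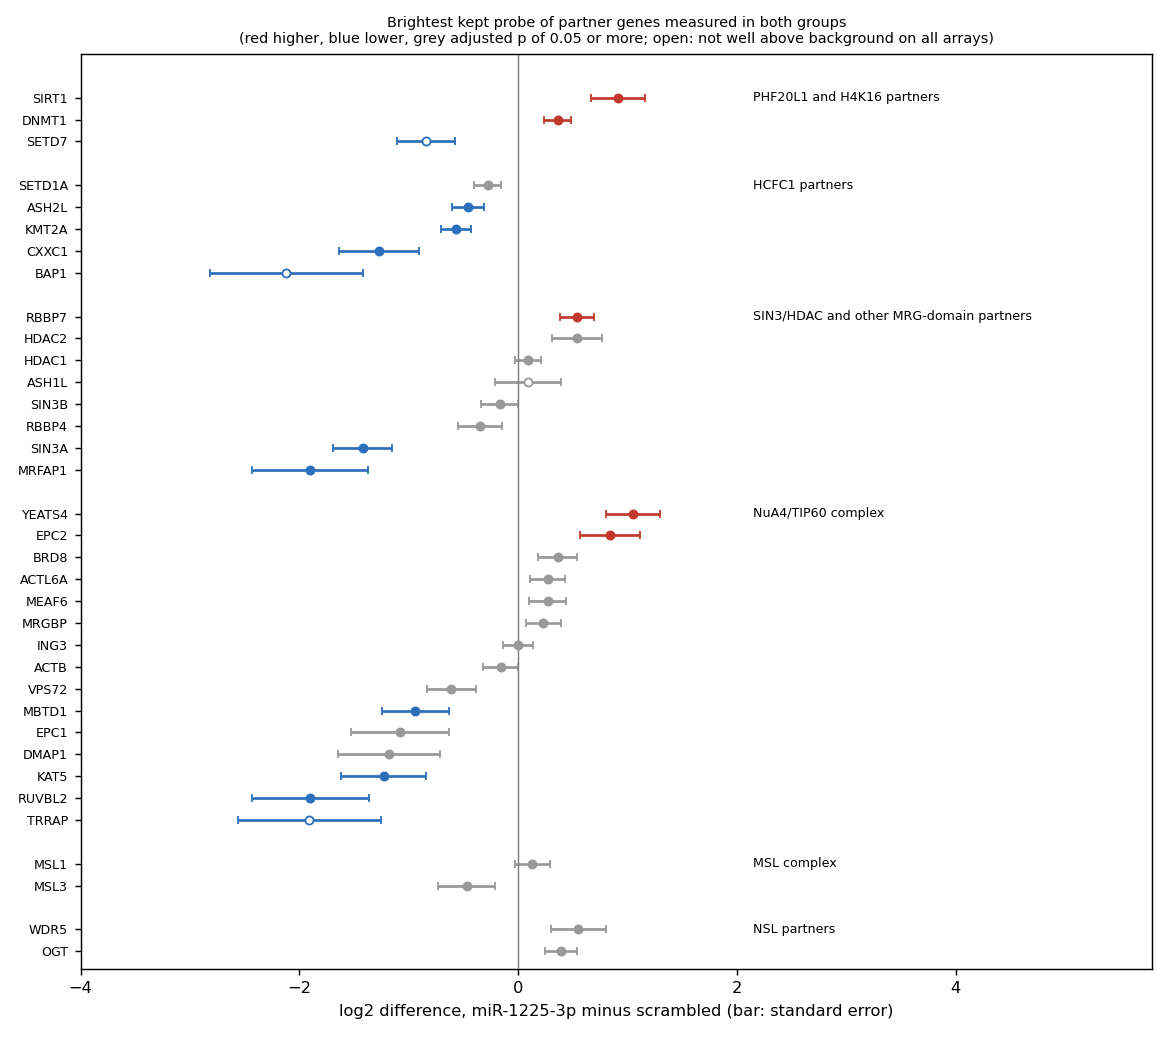
Difference of the group means on the log2 scale (miR-1225-3p minus scrambled, SE bars) for the brightest kept probe of the 35 list genes read well above background by at least 3 arrays of each group, red where higher and blue where lower with adjusted p under 0.05 by limma, grey otherwise, and open where the probe was not well above background on all arrays. Blue points lie in 4 of the 6 lists, and the 5 red points are SIRT1, DNMT1, RBBP7, YEATS4 and EPC2.

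The genes with the pattern most like each selected gene were searched by the Pearson correlation of log2 signal over the 10 arrays, which includes the difference between groups, among the 10508 named probes that every array read well above background. For PHF20L1 probe A_33_P3546070 they were C3orf52 (r = 0.991), TTC27 (r = 0.990) and TSEN15 (r = 0.989), with group differences of 0.88, 0.89 and 1.33. For MORF4L2 they were LSM14A (r = 0.996), CCNG1 (r = 0.996) and LSM1 (r = 0.995), with group differences of -0.77, -1.37 and -1.53. The 10 arrays are the only points behind each value, and those of 1 group share their treatment.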

How the data were processed

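Total RNA was measured on 1-colour SurePrint G3 Human arrays (Agilent). The authors deposited scanner output, in which processed, median and background signals are intensities, and a table of normalized log2 values for 29271 probes, whose correlation with the values here, each probe centred, was 0.981 to 0.998 per array. The scanner output names Feature Extraction 10.7.3.1, which differs from the version in the methods. The source label calls the scrambled samples untreated, and their titles were followed.

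Processed signals on the log2 scale were brought to a common range by cyclic loess (limma 3.58.1, R 4.3.3, 3 iterations) without the 4259 control spots. Outlier spots were treated as missing, and each probe took the mean of its spots, 58717 spots in all for 42405 probes, of which 24910 matched a RefSeq symbol (GRCh38.p14). The groups were compared over 20648 kept probes with limma and Benjamini-Hochberg adjustment at 0.05. Members and lists were chosen with earlier results of these data known. Named genes were every member probe, up to 5 per direction from the lists (largest differences that passed, bright on all arrays, without overlap), and KAT5, TRRAP, EP400, MSL1, MSL2, DNMT1, WDR5 and OGT. Other list genes were named after their values were seen, to complete a count or as catalytic subunits (HDAC1, HDAC2). Further reasons were probes that disagreed (MSL3, ING3, RBBP4), a sign that turned (SETD1A) or a dim probe (THAP11, RUVBL1). Alternatives covered scaling, background (normexp on the median signal, offset 50, in place of the mean signal planned), filter, flags, test, blocks and each array. The number of arrays limits precision. Coordinates were not used here. The code was tested on simulated data.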

Additional observations from a re-analysis of the deposited data

How the results depend on the processing

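Of the 8 member probes outside the selection, 4 passed by limma. The count was 1 on slide 1 alone, against 26.9% of all probes in that fit. It was 0 with no normalization, with a replicate block and on slide 2 alone, where 3, 4 and 1 had an unadjusted p under 0.05 by limma. It was 1 to 5 when each array was left out. The count over the lists, 20 of 42, was 3 with no normalization, 6 with no filter on dim probes, 0 with the replicate block and 0 on slide 2 alone, with 23 and 2 at an unadjusted p under 0.05 in these last fits, and 2 to 30 when each array was left out. Over all probes 7225 passed, 1224 with no normalization (174 higher and 1050 lower), 4014 without the filter, 0 with the replicate block and 0 on slide 2 alone (8994 and 1395 unadjusted), and 2280 to 11524 when each array was left out. Scaling to the 75th percentile gave 5132 higher and 3262 lower, and quantile normalization 4132 and 3063, against 3356 and 3869. The median of all probes moved from -0.09 to 0.11, 0.04 and, with no normalization, -0.31. The labels give no pairing of same-numbered arrays beyond the number. The correlation of same-numbered arrays was -0.401 to 0.0586 and only replicate 4 matched its own number best. With 5 arrays per group and a wide spread within the miR-1225-3p group, these values cannot tell whether the arrays were paired. Signs reversed for KANSL1 (0.17 with the 75th percentile, 0.027 on slide 1 alone), MCRS1 (0.016 with quantile normalization; -0.28 to 0.053 when each array was left out), PHF20L1 probe A_33_P3278906 (0.14 on slide 1 alone) and PHF20L1 probe A_24_P403303 (-0.45 on slide 2 alone, -0.15 with no normalization). The causes were not tested. PHF20 probe A_24_P297098 passed in each of 10 fits that left out an array and in 10 of 13 other settings, and KAT8 in 7 and 9.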
